A study of Homo sapiens with 8 samples.

Results

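The genes described here are those of the m6A writer machinery: METTL3, METTL14, METTL16, WTAP, RBM15, RBM15B, ZC3H13 and CBLL1. They were taken by gene symbol from the expression table, where all 8 were found among 19475 entries, and by the gene name attached to each peak in the 4 m6A peak lists. The lists held 15 peaks named for a writer gene in Control 1, 14 in Control 2, 22 in FUSO 1 and 18 in FUSO 2, out of 17198, 18149, 18365 and 17039 peaks. Same-strand peaks sharing 1 bp or more were merged across lists into 22001 regions, of which 17 belonged to the writer genes. The 69 writer peaks all overlapped exons of the gene they were named for.

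The cells were HCT116, an established human colorectal carcinoma line, and every library came from this line. Control cells received PBS, and FUSO cells received Fusobacterium nucleatum, a bacterium found in colorectal tumors, for 2 h at 100 bacteria per cell. Each treatment had 2 replicates, and each replicate gave an input library of poly(A) RNA fragments and an IP library of the fragments pulled down with an m6A antibody. Expression values are FPKM (fragments scaled by transcript length and library total) of the 4 input libraries, and each peak list compares the IP and the input of 1 replicate. No file gives read counts, so the absolute depth is unknown, and so is the depth of the IP libraries. The replicates are described as biological, with no word on separate cultures or days. The p-values of comparisons between treatments measure the spread between these libraries. The p-value of a peak comes from 1 replicate and does not measure that spread. Of 9 markers of colorectal epithelium, 7 had a mean of at least 1 FPKM, whereas CEACAM5 was listed at 0 in all libraries and VIL1 at 0 in 3 of 4. Of 8 markers of leukocytes, fibroblasts and endothelium, 2 reached that level (CD68 and COL1A1), with a summed level of 11.7 to 13.1 FPKM in Control and 14.2 to 14.7 FPKM in FUSO libraries, and their part in the results was not tested.

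N6-methyladenosine (m6A) is a methyl mark on adenosines inside mRNA. It is placed in the nucleus by a complex in which METTL3 carries the catalytic activity and METTL14 holds the RNA, within short sequences that often contain GGAC. WTAP, RBM15, RBM15B, ZC3H13 and CBLL1 are adaptors that keep this core in nuclear speckles and bring it to its target RNAs. METTL16 works apart from the complex, on structured RNAs such as the U6 small nuclear RNA and the mRNA of MAT2A, which encodes the enzyme making the methyl donor S-adenosylmethionine. Marks are typically dense in long internal exons and near stop codons.

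The transcripts of all 8 genes carried m6A peaks themselves. One stretch of each transcript is printed to show what lies inside these peaks: 30 bases around a GGAC of the strongest region, with GGAC in capitals. The GGAC nearest the middle of the region was taken among those whose 30 bases lie within 1 exon of the canonical transcript, which in WTAP region 1 left 1 of 4, close to the 5′ end of the region. These windows were read 5′ to 3′ on the transcribed strand of GRCh37 (the assembly also called hg19), and a GGAC in a window is a description of the sequence, not a mapped methylation site.
METTL3 (chr14:21971477-21971506, minus strand, exon 3, coding): ggcgtgcagaacaGGACtcgactacagtag
METTL14 (chr4:119631349-119631378, plus strand, exon 11, coding): ttctgctggccgtGGACgagaaagaaatag
METTL16 (chr17:2323359-2323388, minus strand, exon 10, coding): ttaagaaggaggtGGACgatgccttagtgg
WTAP (chr6:160148589-160148618, plus strand, exon 1, 5′UTR): aggggttgcggcgGGACtaggagcgcggcg
RBM15 (chr1:110883674-110883703, plus strand, exon 1, coding): gacagatgcttttGGACatcgggcaccaga
RBM15B (chr3:51430664-51430693, plus strand, exon 1, coding): gaggaacggagtaGGACcaagggcagtggg
ZC3H13 (chr13:46549484-46549513, minus strand, exon 12, coding): agacaaagacaaaGGACgagatgaccgcag
CBLL1 (chr7:107399299-107399328, plus strand, exon 6, coding): aacccctccccctGGACatattattgccca
Of the 8 windows, 7 lay in coding sequence and that of WTAP in the 5′UTR.

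First, the levels of the subunits were set side by side. Since FPKM are scaled by transcript length, levels of different genes can be compared in these units. METTL3, the catalytic subunit, had the highest level, with 44.6 FPKM in Control 1, 41.5 in Control 2, 43.3 in FUSO 1 and 40.4 in FUSO 2. METTL14, the RNA-binding partner that pairs with METTL3 in the core, had 10.3, 11.6, 11.6 and 11.6 FPKM in the same order. The level of METTL14 was thus 0.231 to 0.287 times that of METTL3 in a library, with a mean of 0.266 over the 4 libraries. WTAP, which bridges the core and the other adaptors, came closest to METTL3, with 38.2 and 37.6 FPKM in the Control libraries and 28.9 and 33.9 FPKM in the FUSO libraries. It stood below METTL3 in 4 of 4 libraries, and the 2 genes did not overlap.

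The other adaptors were far below METTL3 and WTAP. ZC3H13, a zinc finger protein that holds the adaptors in the nucleus, had 10.9 and 11.0 FPKM in Control and 10.2 and 10.4 FPKM in FUSO libraries. RBM15B, an RNA-binding adaptor, had 10.9, 9.93, 9.63 and 10.4 FPKM, and its relative RBM15 had 3.91, 4.04, 4.05 and 4.15 FPKM. CBLL1, also known as the E3 ubiquitin ligase HAKAI, had 9.33 and 9.92 FPKM in Control and 10.8 and 10.3 FPKM in FUSO libraries. RBM15 was the lowest of the 8 genes in every library. The separate methyltransferase METTL16 had 7.53 and 7.49 FPKM in Control and 6.92 and 7.13 FPKM in FUSO libraries, above RBM15 and below all others in 4 of 4 libraries.

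**Figure D1:**
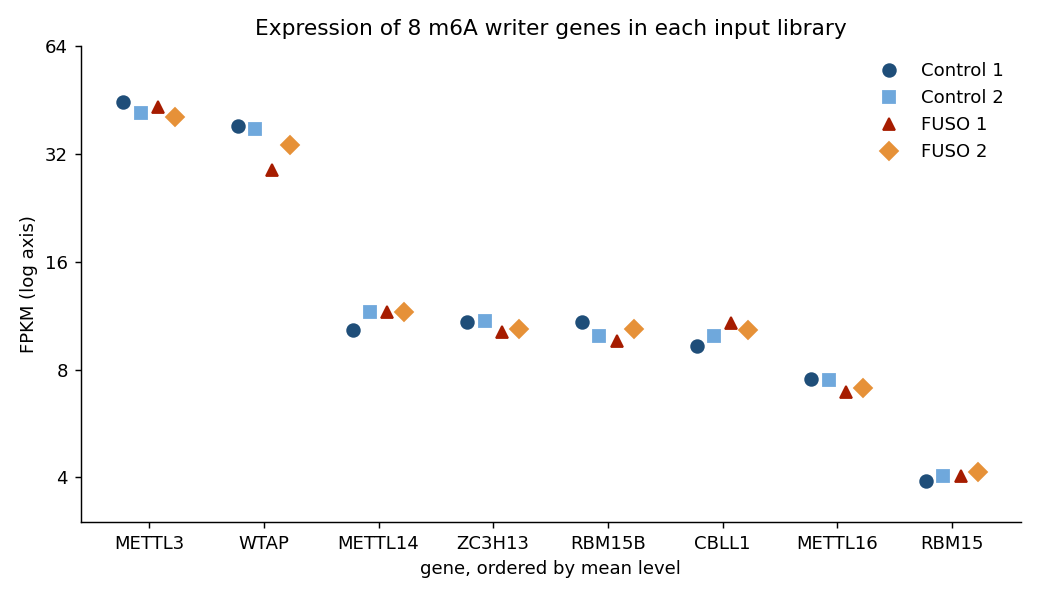
Level of each writer gene in the 4 input libraries, in FPKM on a log axis, with 1 point per library and genes ordered by mean level. METTL3 and WTAP lie between 28.9 and 44.6 FPKM, 4 genes lie close together between 9.33 and 11.6 FPKM, and METTL16 and RBM15 lie below them.

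The order by mean level was METTL3, WTAP, METTL14, ZC3H13, RBM15B, CBLL1, METTL16 and RBM15. Neighbours differed beyond the range of the libraries at 4 steps: METTL3 over WTAP (1.23-fold), WTAP over METTL14 (3.08-fold), CBLL1 over METTL16 (1.39-fold) and METTL16 over RBM15 (1.80-fold). METTL14, ZC3H13, RBM15B and CBLL1 formed a plateau with means of 11.3, 10.6, 10.2 and 10.1 FPKM, and the ranges of neighbours in it overlapped, with each neighbour pair in order in 3 of 4 libraries. Of the summed FPKM of the 8 genes, METTL3 took 31.2% to 34.5% in a library, WTAP 23.0% to 28.3% and RBM15 2.88% to 3.24%. Averaged over the input libraries, 11088 genes reached 1 FPKM, and among them METTL3 lay at percentile 85.3 of mean level, WTAP at 81.9, METTL14 at 55.8 and RBM15 at 26.2. VIRMA, a further adaptor of the complex that is not among the 8 genes and was chosen after its values were seen, had 13.9 and 13.6 FPKM in Control and 13.8 and 12.6 FPKM in FUSO libraries.

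Parts of some transcripts are shared with a gene on the other strand, and the sources used here do not state whether the libraries kept strand. Exons of TOX4 lie over 345 nt of the 1980-nt METTL3 transcript, and exons of DCAF1 over 1325 nt of the 6624-nt RBM15B transcript. On the canonical transcripts, the exonic overlap was 250 nt with CPB2-AS1 for ZC3H13 and 10 nt with CBLL1-AS1 for CBLL1. How reads were shared between those genes was not tested, and the levels of METTL3 and RBM15B carry that limit. No annotated gene overlapped the exons of the other 4.

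Next, Control and FUSO input libraries were compared to ask whether the treatment changed the mRNA of any writer gene. The limma model was fitted on log2(FPKM + 1) across all 11088 genes, and 0.803% of them were called at an adjusted p under 0.05. None of the 8 writer genes was called (limma), and 1 of 8 had an unadjusted p under 0.05, against 13.5% of all genes. METTL3 averaged 43.1 ± 2.19 FPKM in Control and 41.9 ± 2.01 FPKM in FUSO libraries (SD, n = 2), and its groups overlapped. Its log2 fold change was -0.04 with a 95% confidence interval of -0.21 to 0.13 (limma adjusted p = 0.824).

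WTAP was the writer gene with the largest difference. Its level was lower in both FUSO libraries than in either Control library, with means of 37.9 ± 0.399 FPKM in Control and 31.4 ± 3.59 FPKM in FUSO cells (SD, n = 2). The log2 fold change was -0.27 with a 95% confidence interval of -0.49 to -0.05, an unadjusted limma p of 0.0259 and an adjusted p of 0.316, so the difference did not pass the test across all genes. FUSO 1 lay further from the Control libraries than FUSO 2 did: without FUSO 1 the log2 fold change was -0.15, and without FUSO 2 it was -0.38, with limma adjusted p-values of 0.817 and 0.517. In bulk libraries, fewer cells with a transcript and less of it per cell cannot be told apart.

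The remaining 6 genes differed by less. CBLL1 was higher in both FUSO libraries than in either Control library, by 0.12 on the log2 scale (95% confidence interval -0.07 to 0.31, limma adjusted p = 0.511). METTL16 and ZC3H13 were lower in both FUSO libraries than in either Control library, with log2 fold changes of -0.09 and -0.08 (limma adjusted p of 0.631 and 0.627). METTL14 and RBM15 had values in both FUSO libraries above those of both Control libraries, with log2 fold changes of 0.08 and 0.04, but METTL14 in Control 2 differed from FUSO 1 by less than 0.05 FPKM, and RBM15 turned to -0.0040 after quantile normalization. The METTL14 value was 0.0052 without Control 1, 0.16 without Control 2 and 0.029 after GC correction. After the same correction the CBLL1 value was 0.067. RBM15B overlapped between the groups, with a log2 fold change of -0.05.

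In all, 3 writer genes lay higher in FUSO without overlap (METTL14, RBM15, CBLL1) and 3 lay lower (METTL16, WTAP, ZC3H13). Over all tested genes, 47.2% did not overlap, 26.1% higher and 21.1% lower in FUSO, so that with 2 libraries a group such a pattern was common. The median log2 fold change was -0.05 over the 8 genes and 0.01 over all tested genes. The summed level of the 8 genes was 136 and 133 FPKM in Control libraries and 125 and 128 FPKM in FUSO libraries. Both FUSO sums lay below both Control sums, with means of 134 ± 1.84 and 127 ± 2.14 FPKM (SD, n = 2), and the two-sided exact permutation test gave p = 0.333, the smallest that 2 libraries against 2 allow. Without WTAP, an alternative added after the values were seen, the sums were 97.4 and 95.4 FPKM in Control and 96.4 and 94.4 FPKM in FUSO libraries, which overlapped (exact permutation p = 0.667).

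**Figure D2:**
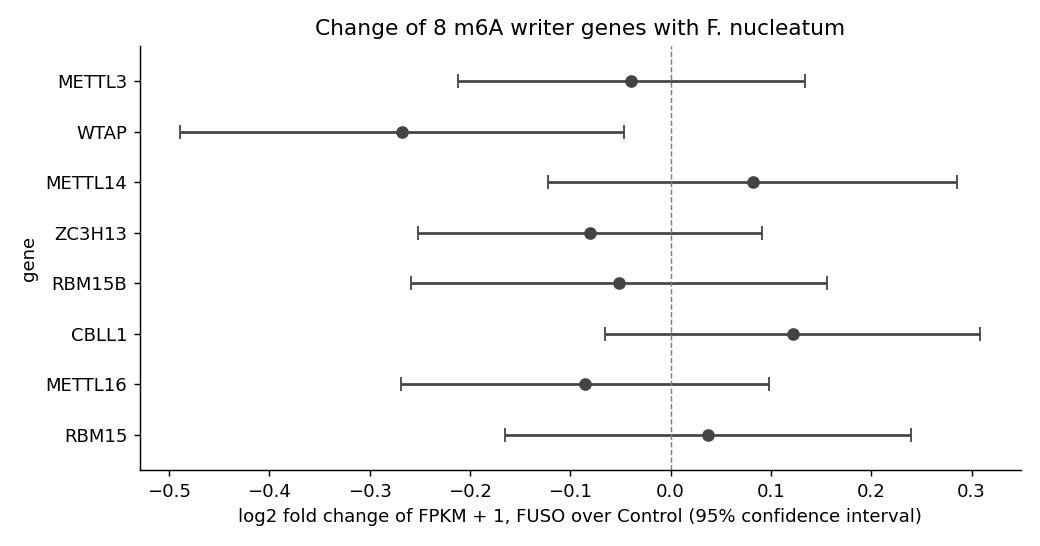
Log2 fold change of FPKM + 1 between FUSO and Control input libraries for each writer gene, ordered as in the plot of levels, with bars for the 95% confidence interval of limma (2 libraries per group). The interval of WTAP, -0.49 to -0.05, is the one of the 8 that does not include 0.

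A ratio within a library is free of the scaling of that library, so each gene was also set against METTL3. The ratio of WTAP to METTL3 was 0.856 in Control 1, 0.906 in Control 2, 0.667 in FUSO 1 and 0.839 in FUSO 2. Both FUSO ratios lay below both Control ratios, though FUSO 2 was within 0.02 of Control 1, and the mean difference was -0.24 on the log2 scale. CBLL1 had ratios of 0.209 and 0.239 in Control and 0.250 and 0.255 in FUSO libraries, higher in both FUSO libraries by 0.17 on the log2 scale. These 2 of 7 ratios did not overlap between the groups, against 42.1% of all tested genes, and the exact permutation p was 0.333 for each, 0.778 after adjustment over the 7 ratios. With 1 library left out, which leaves 1 value in a group, 4 ratios (without either Control library) or 5 (without either FUSO library) did not overlap, against 65.8% to 76.8% of all tested genes. The METTL14 to METTL3 ratio was 0.231 and 0.278 in Control and 0.268 and 0.287 in FUSO libraries, which overlapped, with Control 1 the lowest. With METTL14 as the reference in place of METTL3, the CBLL1 difference was 0.04 on the log2 scale and the groups overlapped. On that reference METTL16, WTAP and ZC3H13 lay lower in both FUSO libraries, with differences of -0.19, -0.36 and -0.18. RBM15 and RBM15B overlapped.

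**Figure D3:**
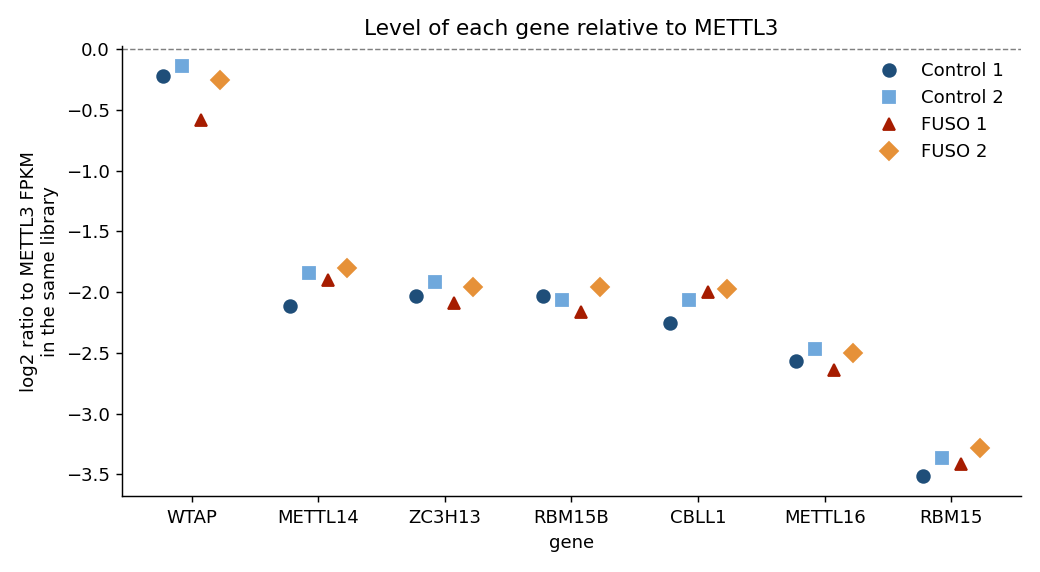
Log2 ratio of each writer gene's FPKM to the FPKM of METTL3 in the same input library, with 1 point per library and the dashed line at equal level. WTAP is the gene nearest to METTL3 in all libraries, and its point for FUSO 1, a ratio of 0.667, lies apart from the other 3 libraries.

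Genes with the most similar pattern to the core pair were found by Euclidean distance in log2(FPKM + 1) over the 4 input libraries, a measure that mostly reflects level. For METTL3 the nearest of 11087 genes were NIT2 at a distance of 0.034, SND1 at 0.064 and TOP2A at 0.071, with means between 41.8 and 43.6 FPKM in either group. For METTL14 they were CHCHD7 at 0.055, AP3M1 at 0.061 and PKIG at 0.064, with means between 10.8 and 11.97 FPKM. The points of each comparison share the same 4 libraries.

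Other genes of m6A metabolism were described beside the writers. The list held 20 genes: other methyltransferases and partners, enzymes of S-adenosylmethionine supply, the demethylases FTO and ALKBH5, and reader proteins that bind m6A. Of these, 19 were tested and none had an adjusted or an unadjusted p under 0.05 (limma), against 0.803% and 13.5% of all tested genes. IGF2BP1, a reader, was under the filter with at most 0.064 FPKM. A positive log2 fold change was found for 14 of the 19 and a negative one for 5, against 5992 positive and 5096 negative over all tested genes. The median was 0.06, against 0.01 over all tested genes. MAT2A, whose mRNA METTL16 methylates, had 173 and 217 FPKM in Control and 209 and 203 FPKM in FUSO libraries, with the FUSO values inside the Control range and a log2 fold change of 0.09.

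The 3 largest differences on that list were those of IGF2BP2, YTHDC1 and METTL4. IGF2BP2, a reader that stabilizes its targets, had 9.55 FPKM in Control 1 against 26.4 in Control 2, 28.4 in FUSO 1 and 28.9 in FUSO 2. Control 1 stood apart from the other 3 libraries, and the log2 fold change of 0.80 did not pass the test (limma adjusted p = 0.456). YTHDC1, a nuclear reader, had 7.54 and 6.68 FPKM in Control and 6.31 and 6.01 FPKM in FUSO libraries (log2 fold change -0.18, limma adjusted p = 0.439). METTL4, a methyltransferase outside the complex, had 3.08 and 2.95 FPKM in Control and 3.48 and 3.44 FPKM in FUSO libraries (log2 fold change 0.15, limma adjusted p = 0.469).

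The second question was where the writer transcripts themselves carried m6A peaks. A region is named here by its gene and its number counted from the 5′ end of the transcript. Each of the 8 genes had at least 1 region with a peak in all 4 lists, as did 67.2% of all tested genes, and 10 of the 17 regions were of this kind, against 51.5% of all 22001 regions. Together the 17 regions held 17723 nt, of which 76.1% lay in coding sequence, 16.7% in 3′UTRs, 2.55% in 5′UTRs and the rest outside the canonical transcript. In 6 genes (METTL14, METTL16, WTAP, RBM15B, ZC3H13 and CBLL1) a region found in all 4 lists held the stop codon, as in 46.4% of tested genes with a canonical transcript. METTL3 and RBM15 were the exceptions, with no peak over the stop codon in any list.

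**Figure D4:**
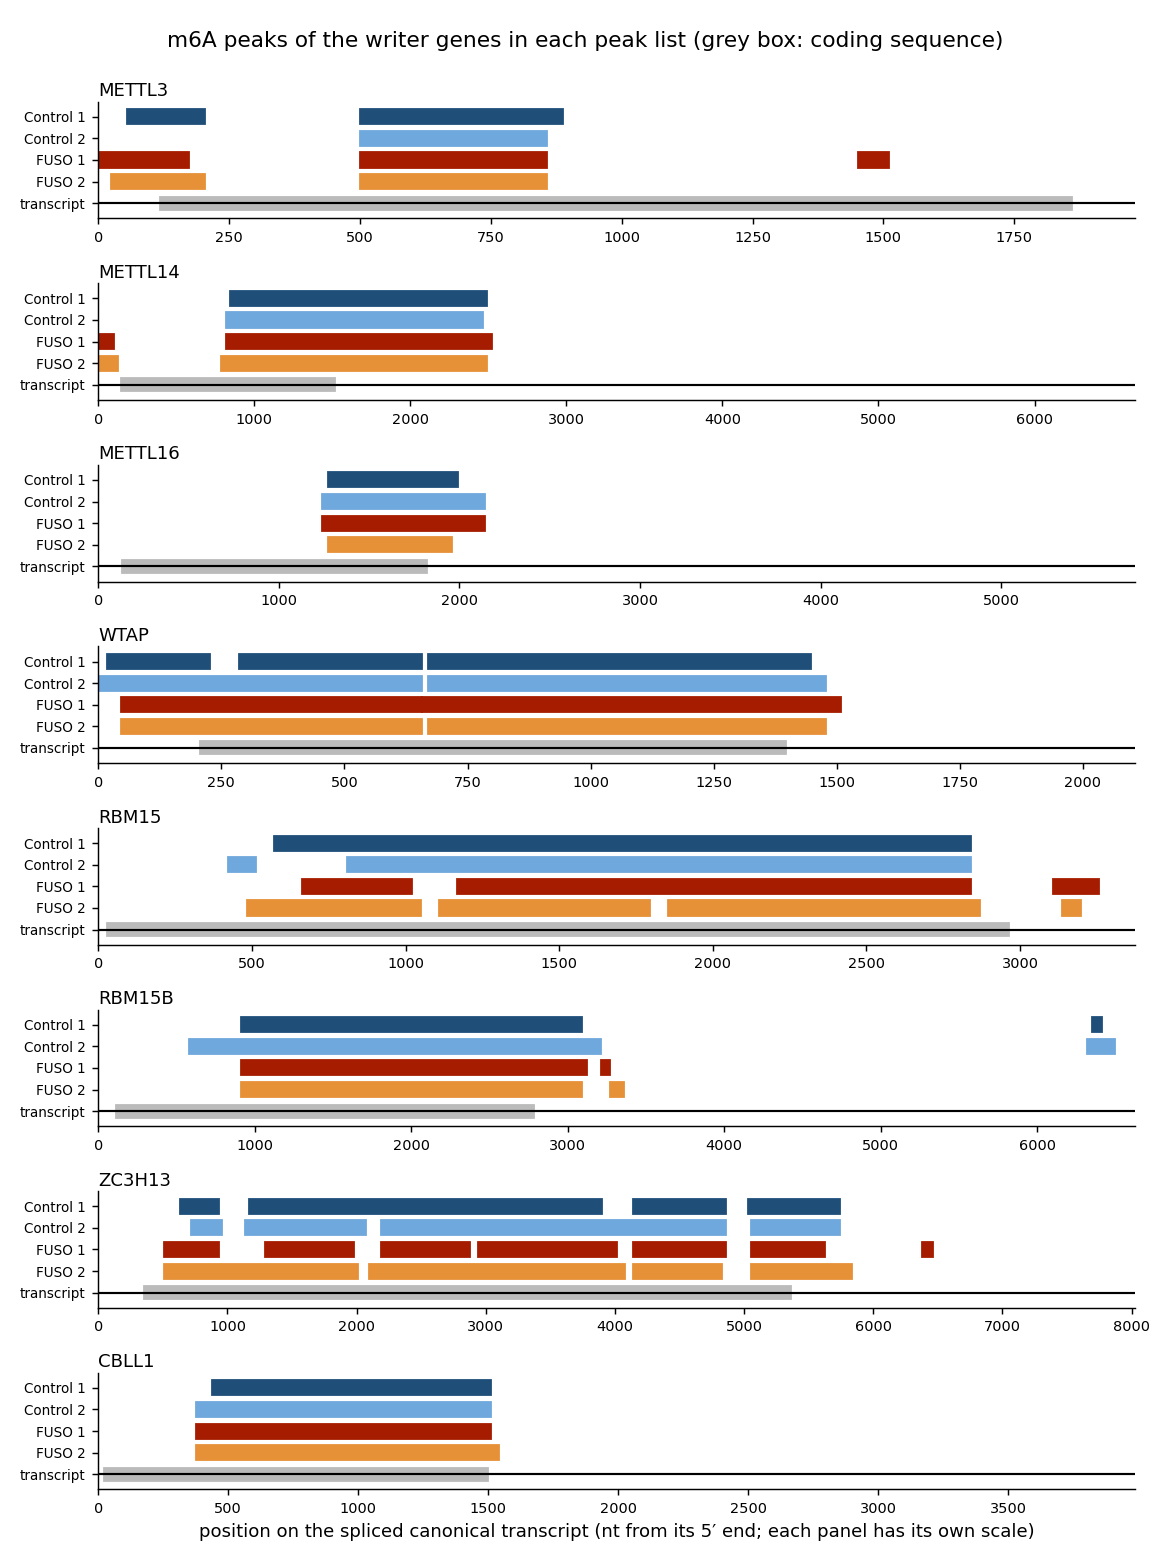
Peaks of the 4 lists drawn along the spliced canonical transcript of each writer gene, in nt from the 5′ end, with the coding sequence as a grey box and each panel on its own scale. In all 8 genes the longest region has peaks in all 4 lists, though in genes such as RBM15 and ZC3H13 the lists split it into different blocks. Short blocks of METTL3, METTL14, RBM15, RBM15B and ZC3H13 occur in some lists.

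The core enzymes differed in where they were marked. METTL3 region 2 (chr14:21969999-21971655) covered 387 nt of coding sequence in exons 3 to 4 and was called in every list (p of 3.2e-33, 7.9e-39, 2.5e-34 and 7.9e-30 in list order). METTL3 region 1 (chr14:21979279-21979487) lay in exon 1 over the start of the coding sequence, in Control 1, FUSO 1 and FUSO 2 but not in Control 2. METTL3 region 3, 60 nt of coding sequence in exons 7 to 8 (chr14:21967694-21967916), was a peak of FUSO 1 alone. METTL14 region 2 (chr4:119618477-119632467) ran for 1738 nt from exon 7 across the stop codon into the 3′UTR and was found in all 4 lists, with a smallest p of 5e-68. METTL16 had a single region (chr17:2322943-2323842), 900 nt in its last exon across the stop codon, found in all 4 lists with p-values between 1.3e-42 and 6.3e-15.

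WTAP carried the strongest peaks of the 8 genes. WTAP region 1 (chr6:160148359-160170017) began at the 5′ end of the transcript and covered exons 1 to 6, and 629 of its 1287 nt lay on exons of the alternative transcripts WTAP-201, WTAP-202, WTAP-205 and WTAP-207 that the canonical transcript does not use. Its p-values were 1e-178 in Control 1, 9e-307 in Control 2, 1e-266 in FUSO 1 and 1e-232 in FUSO 2. In Control 1 the 5′ part with the window printed above was a separate peak with a p-value of 2.5e-15. WTAP region 2 (chr6:160170436-160176754) covered exons 7 to 8 with the stop codon, with p-values of 1e-146, 1e-144, 1e-157 and 1e-131. Both were found in all 4 lists, and together peaks covered 64.6% to 69.6% of the 2105-nt canonical transcript in a list.

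The other adaptors had long regions in their coding sequence. RBM15 region 1 (chr1:110882422-110884868) covered 2447 nt of the large first exon and ended before the stop codon. RBM15B region 1 (chr3:51429297-51432077), in a gene of 1 exon, covered 2207 nt of coding sequence and 574 nt of 3′UTR. ZC3H13 region 1 (chr13:46538145-46619158) was the longest, with 4349 nt of coding sequence over exons 3 to 17, and ZC3H13 region 2 (chr13:46530789-46536316) held the stop codon. CBLL1 region 2 (chr7:107394413-107399666) covered 1121 nt of coding sequence in exons 4 to 6 and 43 nt of 3′UTR. These 5 regions were found in all 4 lists.

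Peaks covered a large share of these transcripts. In all 4 lists at once, a median of 29.96% of the canonical transcript was covered over the 8 genes, against 7.41% over 10673 tested genes with a canonical transcript and 10.8% over the 8895 of them with a peak. WTAP had 63.2% covered in all 4 lists, RBM15 54.0% and ZC3H13 47.5%. METTL3 had 18.1% and METTL16 12.02%, the lowest of the 8. Of the 16896 nt of the 8 transcripts covered in any list, 76.3% were covered in all 4 lists, 1.24% in both Control lists and no FUSO list, and 1.84% in both FUSO lists and no Control list. For all tested genes these shares were 55.4%, 3.44% and 2.35%.

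GGAC was denser inside the peaks than outside. The 8 canonical transcripts held GGAC 148 times on the transcribed strand, and 95 of these (64.2%) lay in a peak, whereas peaks covered 43.9% of the bases. This came to 5.62 GGAC per kb inside and 2.46 per kb outside, against 5.15 and 3.41 per kb for the other tested genes with a peak. All 10 regions found in all 4 lists held at least 1 GGAC, as did 93.5% of all regions of their length (387 to 4349 nt). GGAC counts ranged from 1 in ZC3H13 region 2 to 26 in RBM15B region 1, and the windows printed above are taken from 8 of these 10 regions.

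The third question was whether the peaks differed between Control and FUSO cells. The number of peaks named for a writer gene was 14.5 ± 0.707 in Control and 20 ± 2.83 in FUSO lists (SD, n = 2). Both FUSO lists held more than either Control list, and the exact permutation test gave its smallest p of 0.333. ZC3H13 region 1, for example, was called as 3 peaks in Control 1, Control 2 and FUSO 2 but as 5 in FUSO 1. With only peaks of p at most 1e-05 there were 14 and 12 in Control and 14 and 14 in FUSO lists. The bases covered were 14911 and 15600 nt in Control and 15425 and 15842 nt in FUSO lists, which overlapped (exact permutation p = 0.667). The difference of 5.5 peaks was 3.5 without the FUSO 1 list and 7.5 without the FUSO 2 list.

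Of the 17 regions, 3 were private to a treatment, found in both of its lists and in neither of the other, against 5.02% of all regions. METTL14 region 1 (chr4:119606525-119606675) was found in both FUSO lists with p-values of 0.00072 and 0.0021. It covered 129 nt of the 5′UTR in exon 1 and 22 nt before the annotated start of the gene. RBM15 region 2 (chr1:110889035-110889184), in the 3′UTR, was found in both FUSO lists with p-values of 3.2e-05 and 0.002. RBM15B region 2 (chr3:51435037-51435216), near the end of the 3′UTR, was found in both Control lists with p-values of 0.0028 and 0.00014. Regions found in both FUSO lists alone were 2.38% of all regions and those found in both Control lists alone 2.64%. By gene, 2 of 8 writer genes had a region of the first kind and 1 of 8 a region of the second, against 3.76% and 4.25% of tested genes. Without the FUSO 2 list 6 of 19 writer regions were private, since each region of FUSO 1 alone then counted as one, against 15.7% of all regions in the same setting.

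The lengths of the 3 private regions were 150 to 180 nt, and their peaks ranked between 68.9% and 94.2% of the way down their lists by p-value. None held a GGAC, whereas 56.6% of all regions of 150 to 180 nt did. With peaks of p at most 1e-05, none of 11 writer regions was private to a treatment, against 4.84% of all regions. With a reciprocal overlap of 50% in place of 1 bp, METTL14 region 1 stayed private, and RBM15 region 2 and RBM15B region 2 did not. Another RBM15 stretch inside region 1 (chr1:110882482-110883049) became private, so that 2 of 29 writer regions were private against 5.26% of all regions. Peaks of Control 1 (chr1:110882571-110884838) and Control 2 (chr1:110882810-110884838) also covered parts of that stretch, but fell short of 50% reciprocal overlap with its FUSO peaks. A region missing from a list was not called there, which does not show that the mark was absent. METTL3 region 3, ZC3H13 region 3 (chr13:46530159-46530249, 3′UTR) and CBLL1 region 1 (chr7:107384291-107384440, on an exon of CBLL1-201) were found in FUSO 1 alone. Their p-values were 0.0011, 0.0012 and 0.0023, and 25.6% of all regions were found in 1 list. Of the 150 nt of CBLL1 region 1, 63 lay on exons of CBLL1-AS1 on the other strand. No list held a peak named for CBLL1-AS1 there, and which gene the reads came from was not tested.

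The share of each transcript under peaks was compared in the same way. METTL3 had 27.1% covered in Control 1, 18.1% in Control 2, 29.9% in FUSO 1 and 27.2% in FUSO 2. FUSO 2 and Control 1 differed by less than 0.1 percentage points, and Control 2, which lacks region 1, was lowest. METTL14 had 24.8% in both Control lists and 27.2% and 27.7% in FUSO lists, with region 1 found in the FUSO lists alone. In these 2 genes both FUSO lists lay above both Control lists, as in 15.5% of tested genes with a peak (34.1% in either direction), and the exact permutation p was 0.333 for each. In the other 6 genes the lists of the 2 treatments overlapped.

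Ranks were used to compare the strength of the 10 shared regions, because p-values depend on the depth of the IP libraries, which is unknown. The rank is the position of a region's best peak in its own list, as a percentage of all peaks, with 0 for the smallest p-value. WTAP region 1 ranked at 2.29% in Control 1, 0.934% in Control 2, 1.26% in FUSO 1 and 1.25% in FUSO 2. WTAP region 2 ranked at 3.22%, 3.51%, 3.01% and 3.10%. The weakest shared region was that of METTL16, with 28.9% and 17.01% in Control and 30.9% and 35.7% in FUSO lists.

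Among these 10 regions, 7 had ranks that did not overlap between the treatments, against 38.4% of all 11341 regions found in all 4 lists. In 5 of them the FUSO ranks were weaker: METTL3 region 2, METTL16 region 1, RBM15B region 1 and ZC3H13 regions 1 and 2. In the other 2, METTL14 region 2 and WTAP region 2, the FUSO ranks were stronger. ZC3H13 region 1 ranked at 5.72% and 5.58% in Control and at 8.19% and 10.8% in FUSO lists, but the best of its 3 to 5 peaks was not at the same site in every list. METTL14 region 2 moved from 11.6% and 13.1% to 9.88% and 10.1%, and METTL3 region 2 from 19.9% and 18.5% to 20.4% and 20.8%. The peak p-values of METTL3 region 2, given above, overlapped between the treatments. RBM15B region 1 ranked at 7.68% and 6.87% in Control and at 9.35% and 7.85% in FUSO lists, so Control 1 and FUSO 2 lay close together. The exact permutation p was 0.333 for each of the 7 and 0.476 after adjustment over the 10 regions. As 0.333 is the smallest p that 2 lists against 2 allow, no region could have passed this test at 0.05. With ranks taken among the shared regions alone 6 of the 10 did not overlap, against 40.6% of all shared regions, and with 1 list left out 8 to 10 did not, against 67.1% to 72.8%.

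**Figure D5:**
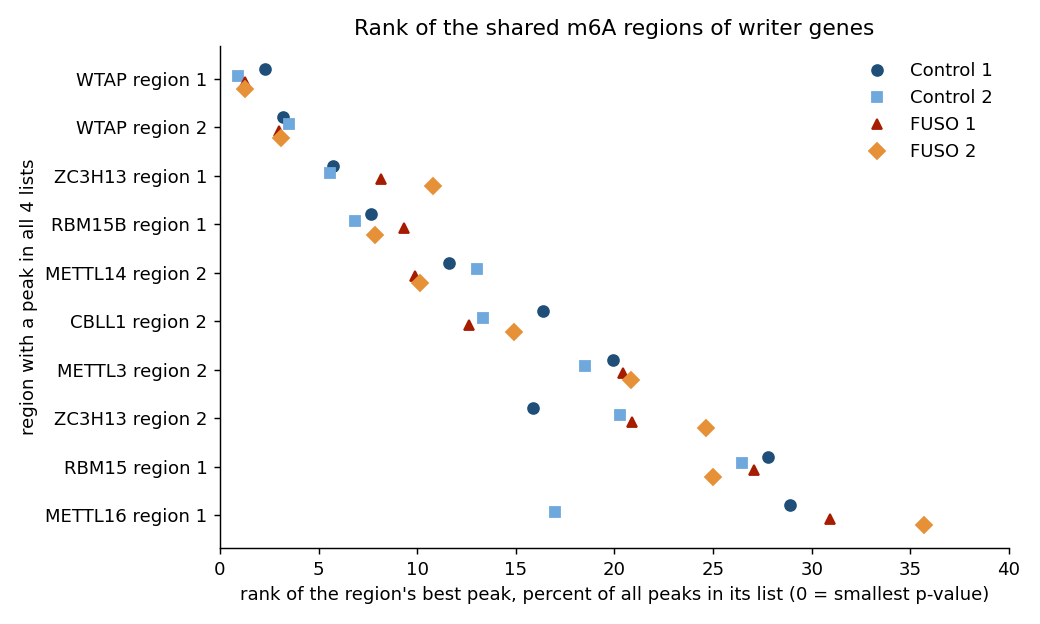
Rank of the best peak of each writer region found in all 4 lists, as a percentage of all peaks in that list by p-value (0 is the smallest p), with 1 point per list. The regions of WTAP lie below 4% in all lists, and METTL16 region 1 spreads most, from 17.01% in Control 2 to 35.7% in FUSO 2.

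The input levels of these genes were set beside the ranks, and for METTL3 and RBM15B the levels of the treatments overlapped. For ZC3H13 and METTL16 the mRNA level was lower and the rank weaker in both FUSO libraries. For METTL14 the level was higher and the rank stronger, but its level was nearly tied between Control 2 (11.555 FPKM) and FUSO 1 (11.600 FPKM). For WTAP the level was lower in both FUSO libraries while region 2 ranked higher. For ZC3H13 region 1 the best peak lay at transcript positions 4139 to 4859 in Control 1, 2190 to 4859 in Control 2, 1290 to 1980 in FUSO 1 and 4139 to 4829 in FUSO 2. Peaks over the site that was best in FUSO 1 ranked at 16.03% in Control 1 and 7.72% in Control 2. They ranked at 8.19% in FUSO 1 and 12.39% in FUSO 2, so the treatments overlapped at this site. These peaks differed in length, from 691 nt in FUSO 1 to 2730 nt in Control 1. One ZC3H13 peak had the same 721 nt in Control 1 and FUSO 1 (chr13:46538145-46542892), with p-values of 3.2e-98 and 3.2e-60 and ranks of 5.72% and 11.47%. At this site, which held the best peak in Control 1 and FUSO 2, the peaks of Control 2 and FUSO 2 ranked at 5.58% and 10.79%. Both FUSO ranks were thus weaker than both Control ranks there, and the Control 2 peak was 2670 nt long. The part of mRNA level and of the choice of peak in the ranks was not tested.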

How the data were processed

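HCT116 cells treated with PBS or F. nucleatum were profiled in 8 libraries, 2 each of Control input, Control IP, FUSO input and FUSO IP, grouped by the sample labels. Per the labels and the study's methods, the authors trimmed reads with Trim Galore 0.3.3, aligned them to hg19 with HISAT2 2.1.0 and computed FPKM from the input libraries with StringTie. RNA fragments were 60 to 200 bp long. FPKM correct for length and total, not for GC recovery. The 4 deposited peak lists hold 1 score per peak, between 0 and 0.012, taken here as a p-value from the authors' peak caller. MACS2 (Fisher exact test) is named in the methods, but the exon blocks of the lists are in the format of exomePeak, and the program used was not settled here.

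The 11088 genes averaging 1 FPKM or more were tested with limma 3.58.1 in R 4.3.3 (trend) on log2(FPKM + 1), which understates changes of low genes, with Benjamini-Hochberg adjustment over all of them at 0.05. The count model of the study's methods was not usable on FPKM. The fit was tested on simulated data. Other means were compared by two-sided exact permutation tests. Annotation was GENCODE release 44 mapped to GRCh37. All 8 writer genes, the 20 further m6A genes and the marker lists were chosen with earlier results of these data known. Named beside the writers were the 3 largest log2 fold changes of the 20 and MAT2A. Alternatives were the filter, pseudocount, scaling, GC correction, replicate block, reference gene of the ratios, peak threshold, overlap rule and each replicate left out. The same-numbered input libraries had deviations that correlated at r = 0.024 across genes, so numbers were not taken as pairs. Python 3.11.15, NumPy 2.4.6, SciPy 1.17.1, pandas 2.3.3 and Matplotlib 3.10.9 were used.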

Additional observations from a re-analysis of the deposited data

How the results depend on the processing

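Limits are the 2 libraries in a group and a depth that the files do not give. No writer gene was called by limma under any of the 13 alternatives, and 0 or 1 had an unadjusted p under 0.05, while the calls over all genes, 89 as reported, ranged from 16 without FUSO 2 to 284 without Control 2. The median log2 fold change of the writer genes, -0.045 as reported, was -0.070 after median centring, -0.066 after GC correction, and between -0.082 and 0.0073 with 1 input library left out. With the replicate block, which pairs libraries that share only a number, no writer gene was called, 90 genes were called in all, and WTAP had a limma adjusted p of 0.312. With the replicate block and GC correction together the median was -0.066 and 65 genes were called. The sign turned for RBM15 after quantile normalization (log2 fold change -0.0040), and with 1 library left out METTL3 ranged from -0.090 to 0.011 and RBM15B from -0.11 to 0.0093. The ratios to METTL3 that did not overlap numbered 2 as reported and 4 to 5 with 1 library left out, which leaves a group with 1 value, against 65.8% to 76.8% of all tested genes. Private writer regions numbered 3 as reported, 2 under a reciprocal overlap of 50%, 0 at p of at most 1e-05, and 4 to 6 with 1 list left out, against 5.26%, 4.84% and 15.2% to 15.7% of all regions. The difference in peak number, 5.5 as reported, was 1 at p of at most 1e-05, 378 nt in bases covered, and 3.5 to 7.5 peaks with 1 list left out. Shared writer regions whose ranks did not overlap numbered 7 as reported, against 38.4% of all shared regions. They numbered 6 with ranks among shared regions, against 40.6%. With 1 list left out, which leaves a treatment with 1 list, they numbered 8 to 10, against 67.1% to 72.8%. The summed level differed by -7.47 FPKM as reported and by -0.982 FPKM without WTAP, chosen after seeing the data.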
